A study of Mus musculus with 2 samples.

Results

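Genes of the complement system were followed as transcript counts across spots of a mouse brain section. They were chosen by name: C1qa, C1qb, C1qc, C4b, C3, C3ar1, C5ar1, Itgb2 and Cd59a, 9 of the 19465 genes of the probe panel, and all 9 had counts. Complement is a cascade of secreted proteins that marks surfaces for removal. C1q, assembled from the chains of C1qa, C1qb and C1qc, starts the classical route, C4 and then C3 are cleaved and deposited, their fragments are read by receptors on phagocytes, and CD59 blocks the final membrane pore. In the brain C1q is known as a product of microglia, the resident macrophages, C4 and C3 are known to be made by astrocytes among other cells, and the pathway is known for tagging synapses.

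The series labels a brain section of a male G2-3 mouse, which carries A53T alpha-synuclein, and a brain section of a male wild-type (WT) mouse, both at 6 months of age. What promoter drives the G2-3 transgene is not given in the labels. The count matrices deposited under the 2 labels were identical in all 8667725 nonzero entries, so the data hold 1 library, G2-3 and WT cannot be told apart, and they were not compared. All comparisons below are therefore between places on this section, without replicates and without tests. Intervals are 95% intervals that cover counting error only, and a count of 0 was bounded at 3 counts.

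Counts are UMIs, the molecular tags by which each captured probe product is counted once, and a spot is a small area of tissue that can hold several cells. The 2485 spots used are those marked as tissue in the WT position list with at least 500 UMIs. They summed to 20997947 UMIs, with a median of 6686 per spot (range 1183 to 80174). Clustering, with all 9 genes and all marker lists left out, gave 16 regions of 52 to 294 spots, called here by their 2 leading genes. Their median depth ran between 2516 UMIs per spot in the Gfap/Myoc region and 30719.5 in the C1ql2/Pcdh20 region. The Gfap/Myoc region (116 spots) met the fixed white matter markers with 19 of 19 and is called the white matter region. The Mgp/Igf2 region (105 spots) met 14 of 15 markers of the meninges, the membranes around the brain, and the C1ql2/Pcdh20 region (54 spots) met 12 of 13 markers of the dentate gyrus. Levels are given in CPM (UMIs of the gene per 1000000 UMIs of the same spots) and per spot, because the same number of molecules gives a higher CPM in a shallow spot. In spots, fewer cells of a type and less RNA per cell cannot be told apart. Probe efficiencies are unknown, so ratios of UMIs between genes are compared only from region to region and are not relative abundances.

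The 3 C1q genes lie side by side at chr4:136880126-136898844 (GRCm38.p6, 18719 bases), C1qb first, then C1qc, then C1qa. The promoters of C1qb and C1qc are shown because these are the C1q genes with a promoter sequence at hand. None was available for C1qa. Each sequence runs 250 bases before to 50 bases after the start, from RefSeq on GRCm38.p6, and both lie on the minus strand, at chr4:136886151-136886450 and chr4:136892865-136893164. Capitals mark GAGGAA, the core of the purine-rich box known to be bound by the myeloid factor PU.1, or its reverse complement TTCCTC.
C1qb: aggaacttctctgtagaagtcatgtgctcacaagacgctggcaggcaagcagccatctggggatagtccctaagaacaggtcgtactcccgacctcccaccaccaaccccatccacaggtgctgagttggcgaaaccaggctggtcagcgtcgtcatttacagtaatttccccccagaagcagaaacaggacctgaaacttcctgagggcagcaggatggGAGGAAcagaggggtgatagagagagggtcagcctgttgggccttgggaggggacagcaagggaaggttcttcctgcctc
C1qc: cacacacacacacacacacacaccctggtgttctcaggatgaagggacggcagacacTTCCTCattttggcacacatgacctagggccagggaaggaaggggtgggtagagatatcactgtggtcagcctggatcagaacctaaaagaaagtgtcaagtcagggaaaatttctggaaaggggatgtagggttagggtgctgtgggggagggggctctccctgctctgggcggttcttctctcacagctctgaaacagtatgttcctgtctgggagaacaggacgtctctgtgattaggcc
Both strands were searched. The motif stood once in the C1qb promoter on the printed strand and once in the C1qc promoter on the opposite strand. It was also found in 28.3% of 32851 mouse promoters of the same length, in 3 of the 6 member promoters in the table (C1qb, C1qc and Cd59a) and not in those of C3, C3ar1 and C5ar1. A match is a description of letters, not a binding site.

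C1q was counted in most of the section. C1qa (ENSMUSG00000036887) had 3754 UMIs in 1675 of 2485 spots (67.4%, exact interval 65.5% to 69.2%). C1qc (ENSMUSG00000036896) had 1154 UMIs in 848 spots (34.1%, 32.3% to 36.0%). C1qb (ENSMUSG00000036905) had 757 UMIs in 609 spots (24.5%, 22.8% to 26.2%). Summed, the 3 subunits had 5665 UMIs, 269.8 CPM (262.8 to 276.9), in 1976 spots (79.5%, 77.9% to 81.1%). Few spots held many: 308 had 5 or more C1q UMIs and 31 had 10 or more, and the spot with most, 33 UMIs, lay in the Mgp/Igf2 region.

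C1q differed 9.62-fold between regions in CPM, and 3.67-fold per spot. It was highest in the Ttr/Slc6a3 region, at 1029 CPM (902 to 1170). The Mgp/Igf2 region had 855 CPM (782 to 932), the Gng7/Ddn region 753 CPM (689 to 821) and the white matter region 733 CPM (645 to 830). Of these steps, that between Gng7/Ddn and white matter was within counting error. The next region, Pirt/Nxph3, was at 333 CPM (286 to 385), beyond counting error below the white matter region. The 10 regions after it, among them upper cortex (Clec18a/Igfn1, 244 CPM) and hindbrain (Irx2/Cdh23, 178 CPM), were each within counting error of the one above. The dentate gyrus was lowest, at 107 CPM (92.3 to 123), beyond counting error below the hindbrain region.

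Counted per spot the order changed. The Mgp/Igf2 region had 4.84 C1q UMIs per spot (4.43 to 5.28), the Ttr/Slc6a3 region 4.52 (3.96 to 5.14) and the dentate gyrus, lowest in CPM, came next with 3.52 (3.04 to 4.06). The white matter region had 2.15 (1.89 to 2.43), and the lowest was the Cartpt/Baiap3 region of dorsal midbrain with 1.32 (1.19 to 1.47). Across the 16 regions the Spearman correlation of C1q with median depth was -0.77 in CPM and 0.26 per spot. The Mgp/Igf2 and Ttr/Slc6a3 regions led on both scales, and the dentate gyrus, the deepest region, did not keep its place.

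**Figure D1:**
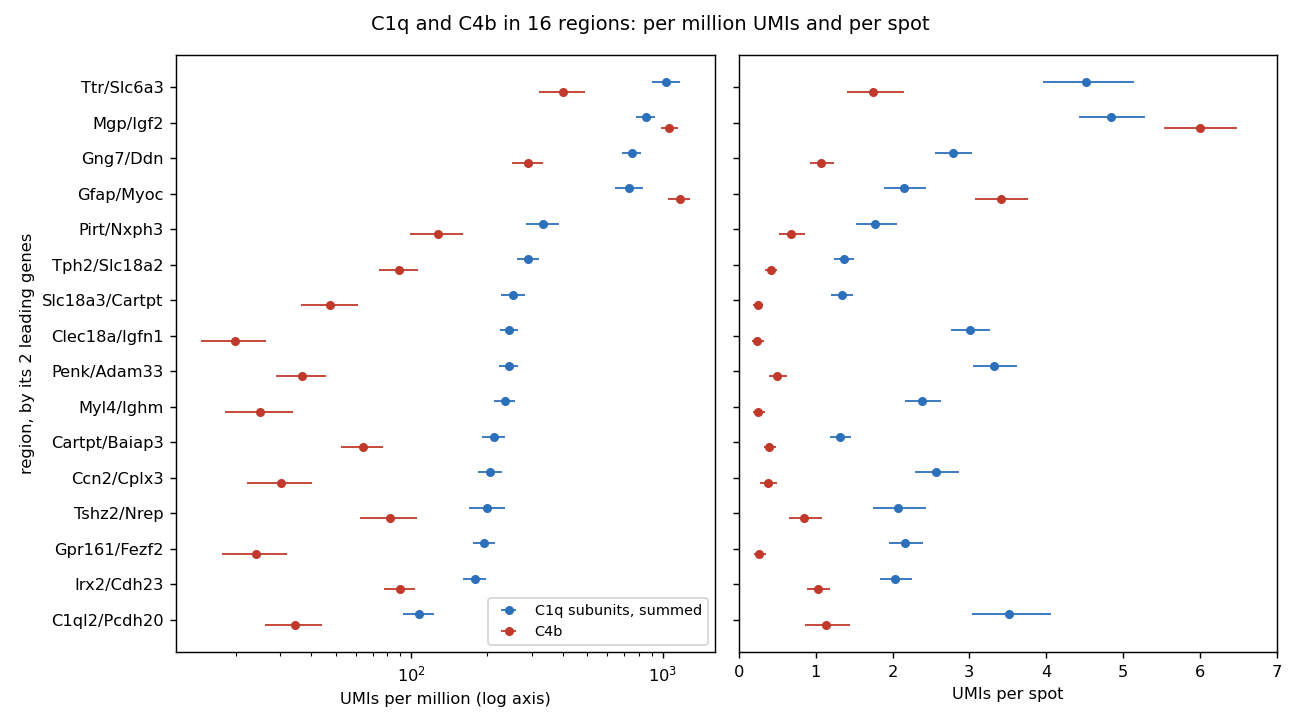
Level of the summed C1q subunits and of C4b in each of 16 regions, in CPM on a log axis (left) and UMIs per spot (right). Points are the values of 1 library, bars are 95% counting intervals, and regions are in order of C1q CPM. C4b spreads over a wider range than C1q on both scales, with the Gfap/Myoc and Mgp/Igf2 regions at the top.

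At an equal depth of 2000 UMIs per spot, 77.6% of spots of the Ttr/Slc6a3 region, 74.2% of the white matter region and 74.1% of the Gng7/Ddn region were expected to show a C1q UMI, against 23.2% in the dentate gyrus. These shares are over the 52, 83, 180 and 54 spots that reach 2000 UMIs. The unthinned shares, over all 52, 116, 186 and 54 spots of these regions, were 90.4%, 81.9% and 89.2%, against 90.7% in the dentate gyrus.

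The subunits kept near ratios over most regions. C1qc per C1qa UMI was 0.31 (0.29 to 0.33) over all spots and ranged between 0.24 (Slc18a3/Cartpt) and 0.38 (Myl4/Ighm) in 15 regions. It was 0.52 (0.38 to 0.70) in the Ttr/Slc6a3 region. C1qb per C1qa UMI was 0.20 (0.19 to 0.22) over all spots, with 0.13 (0.094 to 0.18) in the Mgp/Igf2 region and 0.30 (0.21 to 0.44) in the Ttr/Slc6a3 region at the ends. The intervals of these 2 regions, which lead in C1q, do not overlap.

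Within region and depth class, spots with a C1qa UMI carried more C1qc and C1qb. C1qc stood at 60.7 CPM in the 1675 spots with C1qa and 38.9 CPM in the 810 spots without, a stratified ratio of 1.63 (1.40 to 1.91). C1qb stood at 38.2 CPM with C1qa and 30.1 CPM without, a stratified ratio of 1.36 (1.13 to 1.64). For C1qb in spots with against spots without C1qc the ratio was 0.94 (0.80 to 1.10), an interval that includes 1. Here and below, stratified ratios compare spots of the same region and the same of 3 depth classes.

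C1q followed the microglia list, 25 markers with 8297 UMIs, none of them at 0. The ratio of C1q to list UMIs was 0.68 (0.66 to 0.71) over all spots and lay between 0.57 and 0.84 in 15 of 16 regions, including 0.84 (0.71 to 1.00) in white matter and 0.57 (0.47 to 0.68) in the dentate gyrus. It was 1.03 (0.91 to 1.17) in the Mgp/Igf2 region. Across the 16 regions the Pearson correlation of log2 CPM was 0.98 for C1q with the microglia list, and 0.93 per spot. For the astrocyte list it was 0.88 in CPM and 0.59 per spot, and for the white matter list 0.53 and -0.56. The regions share 1 library and the CPM values share their denominators, so these are descriptions.

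In the Mgp/Igf2 region C1q was high for its microglia markers. That region also had the highest level of the perivascular macrophage list, 493 CPM against 16.6 to 171 CPM in the other regions. Perivascular macrophages, of the vessels and membranes, are also known to make C1q. That list has 9 panel genes, of which Lyve1 was at 0, and its part in the C1q level was not tested.

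**Figure D2:**
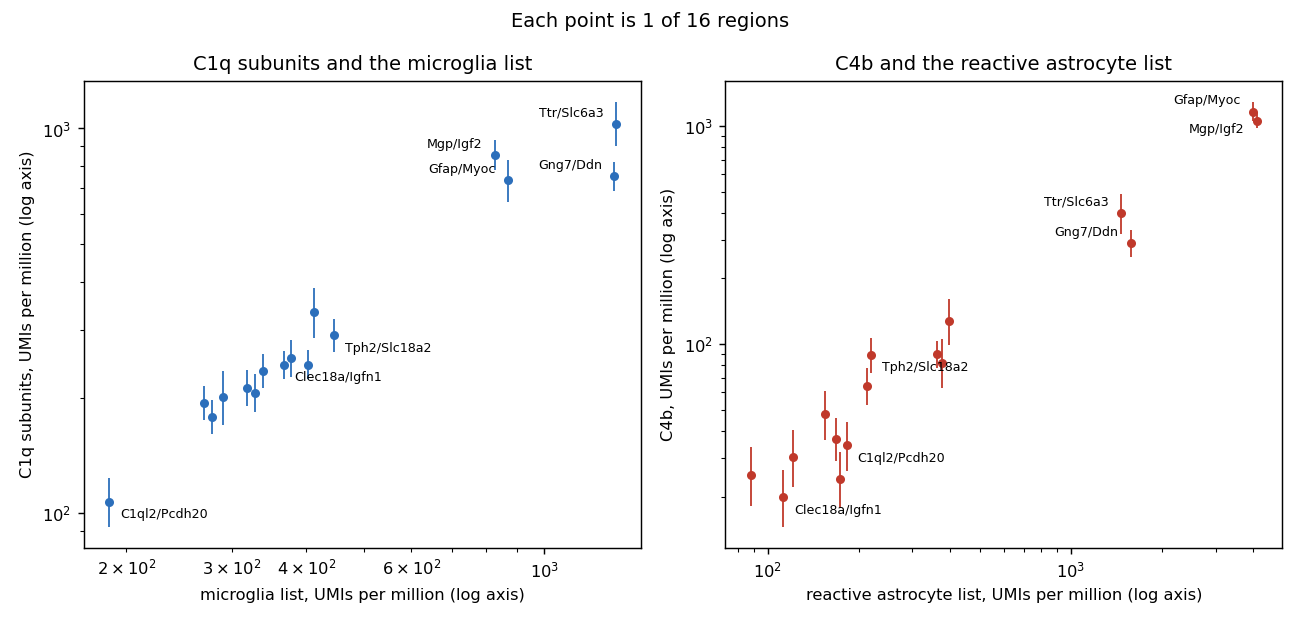
C1q against the microglia list (left) and C4b against the reactive astrocyte list (right), both axes in CPM on log scales. Each point is 1 of 16 regions and bars are 95% counting intervals. Both sets of points climb to the Gfap/Myoc, Mgp/Igf2, Ttr/Slc6a3 and Gng7/Ddn regions at the upper right.

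Spot by spot the summed C1q was also higher beside the microglia list, and of the subunits only C1qa was so beyond counting error. In the 2226 spots with a microglia list UMI C1q stood at 274.7 CPM, against 205.7 CPM in the 259 spots without one. The stratified ratio was 1.32 (1.17 to 1.49). By subunit it was 1.41 (1.22 to 1.64) for C1qa, 1.30 (0.94 to 1.78) for C1qb and 1.09 (0.86 to 1.40) for C1qc. Of 19 microglia markers with at least 100 UMIs, tried singly, 17 had a C1q ratio above 1 beyond counting error, and none was below 1. In the higher columns of the array the log2 ratio for the list was 0.23 (-0.014 to 0.47), an interval that includes no difference, and that for the astrocyte list 0.28 (0.17 to 0.39). The highest markers over the whole section were P2ry13, a purine receptor of microglia, at 1.25 (log2 0.33, 0.16 to 0.49), Aif1, which encodes IBA1, at 1.24 (log2 0.31, 0.19 to 0.43) and Ctss, a lysosomal protease, at 1.22 (log2 0.29, 0.21 to 0.38). The lowest, Fcer1g, was at 1.04 (log2 0.06, -0.05 to 0.17).

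Over the whole section the other lists gave smaller stratified ratios, but the splits differ. The microglia list sets spots with a list UMI against the 259 without, while lists found in nearly all spots are split at their median. The sizes are thus unlike contrasts, and the intervals of the microglia and astrocyte lists overlap. The alternatives include the microglia list split at the stratum median, a split added after seeing the data. Over all settings the C1q log2 ratio was 0.23 to 0.84 for the microglia list and 0.24 to 1.09 for the astrocyte list. Spots above their stratum's median of the astrocyte list had a C1q ratio of 1.24 (1.18 to 1.31) over spots at or below it, with 6 of 16 markers above 1 beyond counting error and 1 below. Aqp4, the water channel of astrocyte endfeet, was highest at 1.16 (log2 0.21, 0.12 to 0.30), then S100b at 1.15 and the glutamate transporter Slc1a2 at 1.13. Slc25a18 was lowest at 0.94 (log2 -0.09, -0.19 to 0.00). The white matter list, of myelin genes, gave 1.07 (1.01 to 1.12), with 3 of 18 markers above 1 and 1 below. Klk6, a protease of oligodendrocytes, was highest at log2 0.27 (0.13 to 0.40), followed by Enpp6 at 0.11 (-0.05 to 0.27) and by Mobp at 0.10 (0.03 to 0.18). The log2 ratio was 0.25 for the meninges list, 0.21 for the endothelial list and 0.26 for the perivascular macrophage list, and 0.02 (-0.10 to 0.14) for the oligodendrocyte precursor list.

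Among all 6874 genes with at least 500 UMIs, 5 were at least 1.5-fold higher in spots with than in spots without a C1q UMI (0.0727%) and 1 was at least 1.5-fold lower (0.0145%). The 10 highest were Cmss1 (1.56), Ctss (1.56), Cd74 (1.56), Crtc1 (1.53), Txndc12 (1.51), Mgp (1.496), Igf2 (1.48), Nfxl1 (1.45), Minar2 (1.44) and Igfbp2 (1.44). Cmss1, Cd74, Crtc1, Nfxl1 and Minar2 had 511 to 549 UMIs each, just over the minimum of 500, so their order is uncertain. The intervals were 1.18 to 2.08 for Cmss1, 1.21 to 2.02 for Ctss and 1.09 to 2.21 for Cd74, which overlap. Ctss is a microglia marker, Cd74 the invariant chain of antigen-presenting cells, and Mgp and Igf2 are on the meninges list. Over regions, the genes whose log2 CPM was most like C1q were Laptm5 (r = 0.97 over 16 regions), a lysosomal membrane protein on the microglia list, then Ctso (0.97), Gnai2 (0.96), Bmpr1b (0.95) and Vsir (0.95), and 33 of 6874 genes were above 0.9.

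C4b (ENSMUSG00000073418, chr17:34728139-34743902), which encodes C4, lay in fewer, denser spots. It had 2245 UMIs, 106.9 CPM (102.5 to 111.4), in 923 spots (37.1%, 35.2% to 39.1%). Of its UMIs 47.2% lay in the 5% of spots with most, against 21.9% for C1qa, which has more UMIs, and 35.9% and 28.8% for C1qb and C1qc, which have fewer. In all 110 spots had 5 or more, of which 53 lay in the Mgp/Igf2 region and 30 in white matter, and 91 of the 110 lay beside another such spot. The highest spot held 45 C4b UMIs of 6991 and lay in the Mgp/Igf2 region. C4a, a close relative of C4b, has no entry in the panel, and whether its transcript is caught by the C4b probes was not tested.

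**Figure D3:**
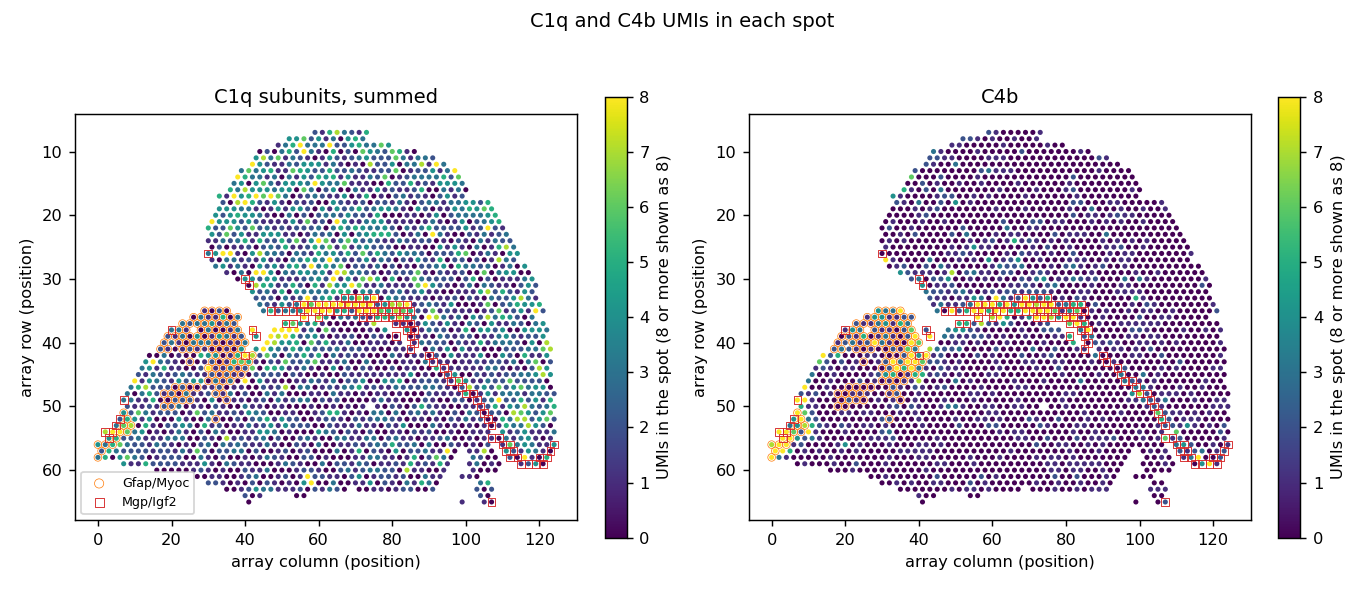
UMIs of the summed C1q subunits (left) and of C4b (right) in each of 2485 spots at its place on the array. Circles outline spots of the Gfap/Myoc region and squares those of the Mgp/Igf2 region. C1q is scattered over the whole section, and of the 110 spots with 5 or more C4b UMIs 53 are outlined by squares and 30 by circles.

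C4b differed 58.6-fold between regions in CPM and 24.5-fold per spot. These spans depend on how the regions are drawn, and were 108-fold and 50.1-fold at Leiden resolution 1.5, and 137-fold and 52.6-fold with the G2-3 tissue list. White matter had 1162 CPM (1051 to 1283) and the Mgp/Igf2 region 1058 CPM (977 to 1144), within counting error of each other. The Ttr/Slc6a3 region had 399 CPM (321 to 489) and Gng7/Ddn 291 CPM (252 to 334), and each of these 2 steps exceeded counting error. The other 12 regions lay between 127 CPM (Pirt/Nxph3) and 19.8 CPM (14.5 to 26.5) in the upper cortex region Clec18a/Igfn1. Per spot the Mgp/Igf2 region led with 5.99 (5.53 to 6.48), before white matter with 3.41 (3.08 to 3.76), and Clec18a/Igfn1 was lowest with 0.24 (0.18 to 0.33). C4b UMIs per C1q UMI were 1.59 (1.35 to 1.87) in white matter and 1.24 (1.10 to 1.39) in the Mgp/Igf2 region, against 0.08 to 0.50 in the other 14.

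C4b did not follow the myelin genes in order. The Tph2/Slc18a2, Slc18a3/Cartpt and Pirt/Nxph3 regions had 24230, 18542 and 18502 CPM of the white matter list, the next highest after the 53857 CPM of the Gfap/Myoc region. Their C4b was 89.0, 47.6 and 127 CPM. Across the 16 regions C4b correlated with the white matter list at r = 0.64 in CPM and 0.24 per spot. With the reactive astrocyte list, of which Gfap gave 6337 of 8947 UMIs and Timp1 none, r was 0.98 in CPM and 0.96 per spot. C4b per UMI of that list was 0.29 (0.26 to 0.33) in white matter and 0.26 (0.24 to 0.28) in the Mgp/Igf2 region, and 0.14 to 0.41 in the other 14. The meninges list, of whose 81960 UMIs Ptgds gave 73497, correlated at 0.90 and 0.83, and the blood list, mostly haemoglobin genes, at 0.96 and 0.92, so several lists run with C4b over these regions. White matter had 14441 CPM of the meninges list and 23206 CPM of the blood list, against 59664 and 44815 CPM in the Mgp/Igf2 region. The part of these cells in the C4b level was not tested.

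From spot to spot, C4b was higher where blood, perivascular macrophage, meninges and astrocyte markers were. The stratified ratio was 1.51 (1.39 to 1.64) for the blood list, the highest of 11 lists, 1.34 (1.24 to 1.46) for the astrocyte list, 1.41 (1.199 to 1.66) for the reactive astrocyte list, 1.45 (1.33 to 1.57) for the meninges list and 1.48 (1.33 to 1.64) for the perivascular macrophage list. Blood, meninges, astrocyte and white matter lists were split at the stratum median and the others named here at 1 UMI, so these sizes are unlike contrasts. For the white matter list the ratio was 1.26 (1.16 to 1.36). For the microglia list it was 1.15 (0.96 to 1.38), an interval that includes 1, with 259 spots without a list UMI. The log2 ratio for that list, 0.20 (-0.06 to 0.47), was 0.35 (0.17 to 0.52) in spots with at least 2 list UMIs over the others. It was 0.31 (0.19 to 0.43) with spots split at the stratum median, a split added after seeing the data, and both of these intervals exclude no difference. C4b stood at 124.1 CPM in spots above and 91.2 CPM in spots at or below the stratum median of the astrocyte list, and at 108.4 CPM in spots with and 88.2 CPM in spots without a microglia list UMI. At array columns above the median, with no spot of the white matter region, the log2 ratio was 0.0036 for the astrocyte list and -0.069 for the white matter list. Without the white matter and Mgp/Igf2 regions it was 0.54 (0.38 to 0.70) and 0.44 (0.28 to 0.61).

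Tried singly, Gfap, the filament protein of reactive and white matter astrocytes, had a C4b ratio of 1.78 (log2 0.83, 0.63 to 1.04) and Vim 1.51 (log2 0.60, 0.46 to 0.74). Of the 5 reactive astrocyte markers 3 were above 1 beyond counting error and none below, and the intervals of Serpina3n, at 1.12, and Cp, at 1.05, include 1. Among the astrocyte markers, the connexin genes Gja1 and Gjb6 were highest, at 1.49 (log2 0.57) and 1.47 (log2 0.55), then Sox9 at 1.37 (log2 0.46), and Slc1a3 was lowest at 0.88 (log2 -0.19, -0.32 to -0.06). In all 9 of 16 astrocyte markers were above 1 beyond counting error and 3 below. Of the white matter markers 7 of 18 were above and 2 below, with Klk6 at 1.42, Cnp at 1.23 and Cldn11 at 1.22 highest and Mag at 0.82 (log2 -0.29, -0.45 to -0.13) lowest. Of the microglia markers 9 of 19 were above and none below, with the lysosomal Cd68 at 1.32, Inpp5d at 1.30 and Laptm5 at 1.25 highest and Siglech at 0.90 (log2 -0.16, -0.38 to 0.07) lowest. Of the meninges markers 11 of 12 were above, led by Col1a1 at 1.66.

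**Figure D4:**
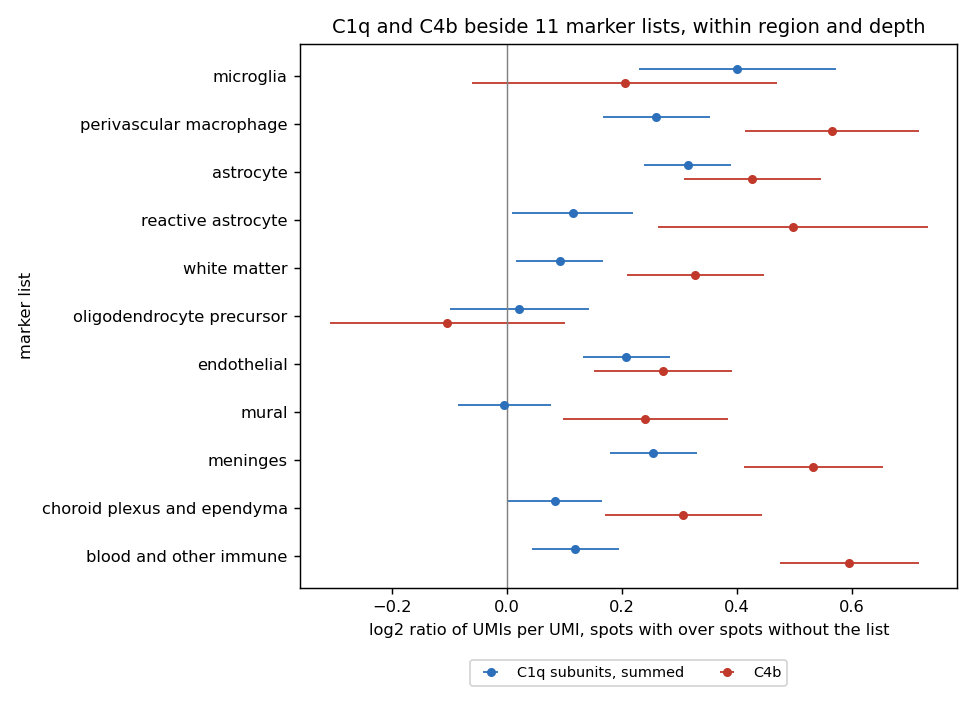
Log2 ratio of C1q and C4b UMIs per UMI in spots with over spots without each of 11 marker lists, within region and depth class. Points are ratios and bars 95% counting intervals, and lists found in nearly all spots were split at the stratum median. The C1q point is highest for the microglia list, and the C4b points for the blood, perivascular macrophage, meninges and reactive astrocyte lists. Sizes from the different splits are not like for like.

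Among the 6874 genes, 13 were at least 1.5-fold higher in the 923 spots with a C4b UMI than in the 1562 spots without (0.189%) and 1 was lower by as much (0.0145%). Myoc, which encodes the secreted protein myocilin, led at 2.88-fold (2.56 to 3.25), followed by Gfap at 1.99 (1.86 to 2.13). Then came Slc6a20a (1.97), Cd74 (1.93), Ptgds (1.92), Mgp (1.89), Igf2 (1.87), Col1a2 (1.78), Gjb2 (1.72) and Hba-a2 (1.68). Of these 10, 4 are on the meninges list. Over regions Gfap was most like C4b (r = 0.97 over 16 regions), then Padi2 (0.97) and the haemoglobin genes Hba-a2 (0.96), Hbb-bs (0.95) and Hbb-bt (0.95), and 36 genes were above 0.9.

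C3 (ENSMUSG00000024164, chr17:57203967-57228136), the central component on which all routes meet, was rare. It had 28 UMIs in 25 spots (1.01%), of which 19 UMIs in 16 spots lay in white matter. The rest were 3 UMIs each in the Mgp/Igf2 and Irx2/Cdh23 regions, 2 in Tph2/Slc18a2 and 1 in Ccn2/Cplx3, and the other 11 regions had none. The 923 spots with C4b held 25 of the 28 UMIs, a stratified ratio of 6.71 with a wide interval of 1.09 to 41.3. In spots with against spots without C1q the ratio was 1.71 (0.44 to 6.67).

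White matter was then set against all 2369 other spots for all genes. Of the 9 members, 5 had at least 100 UMIs (C4b, Cd59a, C1qc, C1qa and C1qb), and all 5 were at least 2-fold higher in white matter in CPM, as were 11.8% of 11003 genes, while 19.2% were at least 2-fold lower. C4b had 395 UMIs in white matter and 1850 elsewhere, 1162 CPM against 89.6 CPM, a 12.98-fold difference (log2 3.70, 3.54 to 3.86). The C1q sum had 249 UMIs in white matter and 5416 elsewhere, 733 CPM against 262 CPM, a 2.80-fold difference (log2 1.48, 1.29 to 1.67). C1qc was 3.04-fold, C1qa 2.85-fold and C1qb 2.16-fold higher. C1qb (log2 1.11, 0.49 to 1.68) was below 2-fold at Leiden resolution 0.6 (log2 0.95) and with no UMI minimum (log2 0.86). C3, below that minimum, was at 55.9 CPM in white matter and 0.44 CPM elsewhere, 128-fold higher (interval on the log2 scale 5.79 to 8.33). C3ar1 was at 8.83 CPM and 2.61 CPM, with an interval that includes 1.

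Counting per spot shifts the log2 ratio of every gene by the same amount, so genes keep their order. C4b had 3.41 UMIs per spot in white matter and 0.78 elsewhere, 4.36-fold more, and only 0.936% of genes were at least 2-fold higher on that scale, with C4b 8th of 11003. C1q had 2.15 UMIs per spot in white matter and 2.29 elsewhere, 0.94-fold (log2 -0.09, -0.28 to 0.09). Most genes, 79.3%, were at least 2-fold lower per spot in this shallow region. Among the 11003 genes Cd59a ranked 447th, C1qc 511th, C1qa 611th and C1qb 1115th by this ratio. C1q was thus higher in white matter in CPM and not per spot, and C4b on both scales.

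Inside the white matter region, the C4b intervals of interior and rim overlapped. The 32 spots with all 6 neighbours in the region had 1134 CPM (915 to 1389), and the 84 others 1172 CPM (1043 to 1312). The inner spots had 27 of 32 with a C4b UMI and the outer 64 of 84. C3 stood at 73.1 CPM (26.8 to 159) inside and 50.4 CPM (26.9 to 86.2) outside, and C1q at 658 CPM (494 to 859) and 757 CPM (654 to 871). The meninges list was lower inside, 12177 CPM against 15162 CPM, while Gfap was higher, 4315 CPM against 3236 CPM. The blood list was also higher inside, 29606 CPM (28441 to 30808) against 21168 CPM (20610 to 21737). This split was chosen after the map had been seen.

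C4b was lower in each of the first 3 steps outside that region. At 1 grid step (79 spots) it was 303 CPM (255 to 356) and 1.82 UMIs per spot. At 2 steps it was 148 CPM (120 to 182), and at 3 steps 68.5 CPM (48.7 to 93.6) and 0.74 per spot. From 3 steps on, over 2224 spots, it was 82.5 CPM, with single steps between 21.9 and 207 CPM. C1q was 362 CPM (310 to 420) at 1 step and 243 CPM (206 to 285) at 2 steps, and its count per spot stayed between 2.15 and 2.36 from the inside to 3 steps out. C3 had 5 UMIs at 1 step and 4 in all the spots from 3 steps on.

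**Figure D5:**
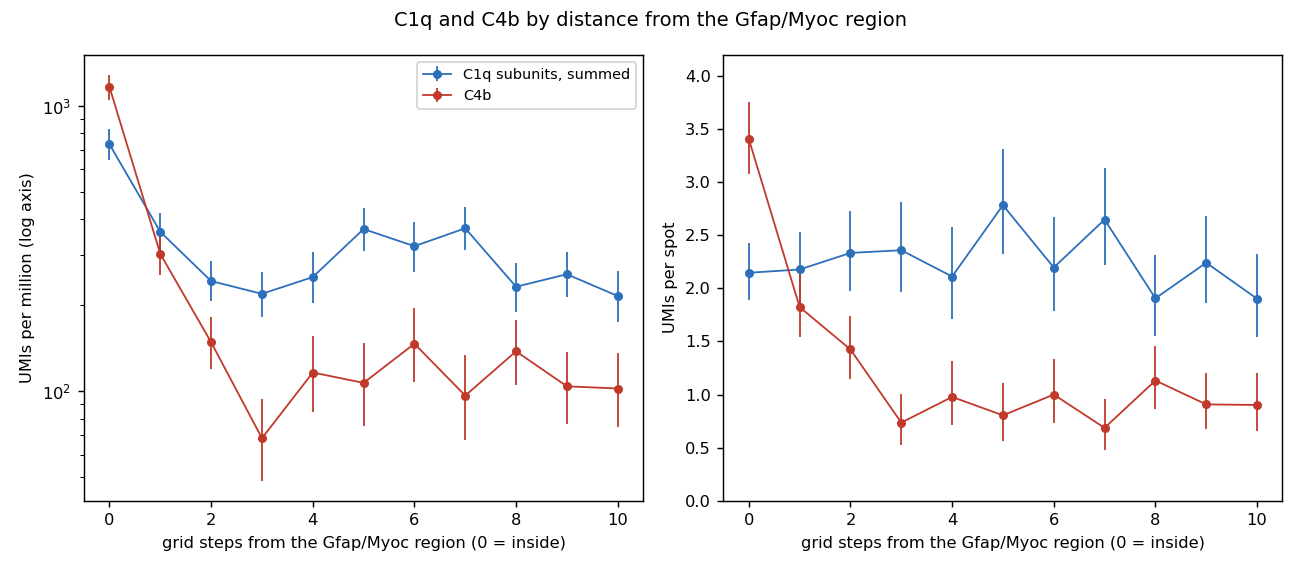
C1q and C4b by grid steps from the Gfap/Myoc region, 0 being inside it, in CPM on a log axis (left) and UMIs per spot (right). Points are values over all spots at that distance and bars 95% counting intervals. C4b drops on both scales over the first 3 steps, and C1q drops in CPM but not per spot.

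The receptors were scarce. C3ar1 (ENSMUSG00000040552, chr6:122847140-122856157), the receptor of the C3a fragment, had 57 UMIs in 54 spots (2.17%, 1.64% to 2.83%). It was highest in the Mgp/Igf2 region with 11 UMIs, 18.5 CPM (9.24 to 33.1), and in Gng7/Ddn with 9 UMIs, 13.1 CPM (5.98 to 24.8), while Tshz2/Nrep had none. In spots with against spots without C1q it had 2.36 CPM against 4.66 CPM, from 42 and 15 UMIs, a stratified ratio of 0.42 (0.22 to 0.84). Its ratio was 2.55 (1.36 to 4.79) in spots with against spots without the perivascular macrophage list, and 0.99 (0.34 to 2.91) for the microglia list.

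C5ar1 (ENSMUSG00000049130, chr7:16246743-16259540), the receptor of C5a, had 14 UMIs in 14 spots spread over 10 regions, at most 3 in any. It had none in white matter, which allows up to 8.83 CPM there. Itgb2 (ENSMUSG00000000290, chr10:77530329-77565708), the CD18 chain that pairs with Itgam to form complement receptor 3, had 19 UMIs in 18 spots of 8 regions. The Gng7/Ddn region held 5 of them, 7.27 CPM (2.36 to 17.0), and white matter none. No fold is given for either gene in white matter, since the bound lies above the level elsewhere. For C5ar1 and Itgb2 the ratios with C1q, 1.35 (0.31 to 5.83) and 0.96 (0.22 to 4.18), leave the direction unread at this depth.

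Cd59a (ENSMUSG00000032679, chr2:104095753-104115410), the membrane inhibitor of the terminal pore, had 199 UMIs in 180 spots (7.24%, 6.26% to 8.33%), the largest share, 46 UMIs, in the hindbrain region Irx2/Cdh23 (22.0 CPM, 16.1 to 29.3). It was highest in CPM in white matter, at 29.4 CPM (14.1 to 54.1) from 10 UMIs, within counting error of the hindbrain region. Ttr/Slc6a3 had 21.9 CPM, Tph2/Slc18a2 21.0 CPM and Cartpt/Baiap3 17.5 CPM. Per spot the hindbrain region led with 0.25 UMIs (0.18 to 0.34), beyond counting error above the next region. White matter had 0.086 per spot (0.041 to 0.16). The Ccn2/Cplx3, Gpr161/Fezf2 and Myl4/Ighm regions had 1.97, 2.05 and 2.91 CPM, and the dentate gyrus had none, which allows up to 1.69 CPM there. In white matter against all other spots it was 3.22-fold higher in CPM (log2 1.69, 0.60 to 2.60) and 1.08-fold per spot. Its ratio was 1.08 (0.74 to 1.57) in spots with against spots without C1q, and 1.06 (0.78 to 1.45) with C4b. Beside the microglia, astrocyte and white matter lists it was 0.94 (0.60 to 1.48), 0.84 (0.64 to 1.12) and 0.84 (0.63 to 1.11), and all these intervals include 1.

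Of the other complement genes, 56 are in the panel. Of 13 initiation genes only Masp1, a protease of the lectin route, had 100 UMIs, and C1rb, Mbl1 and Colec10 had none. Of 11 activation and terminal genes only Cfp, which encodes properdin, had 100, while Cfd, C6, C8a and C9 had none. Masp1 was 0.53-fold and Cfp 1.27-fold in white matter over the rest, with intervals that include 1 (log2 -3.20 to 0.65 and -0.88 to 1.34).

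Of 12 regulators with 100 UMIs, 4 were at least 2-fold higher in white matter and 4 at least 2-fold lower, beside 11.8% and 19.2% of all genes, with a median log2 of -0.08 beside -0.18 for all genes. Serping1, the C1 inhibitor, was 3.72-fold higher (log2 1.90, 0.74 to 2.86). It was highest in the Mgp/Igf2 region, at 101 CPM with 38.5% of its UMIs. Per spot it was 1.25-fold in white matter (log2 0.32, -0.83 to 1.29). The neuronal inhibitors Sez6 and Susd4 were lowest in white matter, 0.10-fold (log2 -3.26, -5.54 to -1.71) and 0.22-fold (log2 -2.18, -3.31 to -1.25). With at least 2000 UMIs per spot, which redraws the region, they were at log2 -1.08 (-1.87 to -0.40) and -0.97 (-1.59 to -0.42), and Sez6l2, 2.91-fold higher as reported (log2 1.54), was at 0.95, so Susd4 and Sez6l2 were then within 2-fold. Susd4 was highest in the dentate gyrus, at 168 CPM, and Csmd1 had no UMI in white matter.

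Of 8 receptors and C1q ligands with 100 UMIs, 1 was at least 2-fold higher and 2 at least 2-fold lower, shares near the 11.8% and 19.2% of all genes. Megf10, an engulfment receptor of astrocytes that binds C1q, was 3.90-fold higher in white matter in CPM (log2 1.96, 1.36 to 2.51), and highest there of all regions on that scale. Per spot it was 1.31-fold (log2 0.39, -0.22 to 0.94), an interval that includes no difference. Itgam, the partner chain of Itgb2, had 17.7 CPM, from 6 UMIs, in white matter and 17.7 CPM elsewhere (log2 interval -1.46 to 1.13). The neuronal pentraxin genes Nptx1 and Nptxr, whose synaptic proteins bind C1q, were 0.08-fold (log2 -3.69, -5.56 to -2.33) and 0.17-fold (log2 -2.53, -2.91 to -2.18). Nptx1 was highest in the dentate gyrus at 436 CPM.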

How the data were processed

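Transcripts were measured with Visium CytAssist v2, a probe-based spatial assay, on fresh frozen, methanol-fixed brain sections, per the labels' protocols. The deposited UMI counts per gene and spot are raw and were made with Space Ranger 3.1.1, per the file headers, and the build is mm10, per the submitters' processing notes. The WT files were used. Of 2722 barcodes, 2487 were marked as tissue in the WT position list and 2485 had at least 500 UMIs. The G2-3 list marks other barcodes, of which 751 have no counts.

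Clustering used scanpy 1.11.5 (counts scaled to 10000 per spot, 2000 variable genes without the listed genes, 30 components, 15 neighbours, Leiden resolution 1, seed 0). The rule that named 8 regions from markers was set after the clusters had been seen. The white matter region is the cluster with the highest white matter list CPM. Ratios of counts have exact 95% intervals, and ratios between spots are Mantel-Haenszel ratios over strata of region and 3 depth classes, with the Greenland-Robins interval. Spots were split at 1 UMI of a list, or at the stratum median where under 10% of spots had none. Doublets do not apply to spots. With 1 library there are no replicates and no tests, and intervals cover counting error only. The scripts were tested on simulated data. Promoter sequences are RefSeq's.

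The genes and lists were chosen with earlier results of these data known. Named are all 9 genes, the 2 highest and 2 lowest other complement genes of each list with at least 100 UMIs, the 10 genes most like C1q and C4b over spots and the 5 over regions, and the 3 highest and the lowest marker of each of 3 lists. Of the genes this rule names, 2 are not reported here. The regions of highest level, the lead marker of the meninges list and the reactive astrocyte markers were named after their values were seen. Alternatives changed the clustering, the UMI minimum, the tissue list, the strata, the scaling (TMM, edgeR 4.0.16) and the part of the array.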

Additional observations from a re-analysis of the deposited data

Results flagged for a closer look

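Barcodes that were not marked as tissue in the WT list also held complement counts, above the level that a count of 0 allows (4.30 CPM over all of them). These 235 barcodes had 697435 UMIs in all, a median of 2507, and 173 of them lay beside a tissue spot. In the G2-3 list 119 of them are marked as tissue.

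C4b stood at 402.9 CPM in these barcodes and 106.9 CPM in tissue spots (3.77-fold). The summed C1q subunits stood at 471.7 CPM in them and 269.8 CPM in tissue spots (1.75-fold). By subunit, C1qa had 334.1 CPM against 178.8 CPM, C1qb 54.5 CPM against 36.1 CPM, and C1qc 83.2 CPM against 55.0 CPM. Cd59a had 14.3 CPM from 10 UMIs against 9.48 CPM, an interval that includes no difference.

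C3 and C3ar1 had 7 UMIs each there, and C5ar1 none. Beside these values, the meninges list was 8.94-fold, the blood list 4.06-fold, the perivascular macrophage list 3.65-fold, the reactive astrocyte list 3.31-fold, the microglia list 1.69-fold and the white matter list 0.81-fold the level in tissue spots. Their part in the complement counts was not tested.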

How the results depend on the processing

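Log2 ratios are given unless stated, and the cause of each change was not tested. Of 117 recomputed values that answer a comparison, 82 stayed within the counting interval or count limit, 31 moved and 4 changed sign. Of 135 for single genes, 117 stayed, 14 moved and 4 changed sign. Sign changes are counted where the reported interval excludes no difference, which leaves out Cfp, at 0.34 as reported, -1.23 per spot and -0.19 with at least 2000 UMIs. Counted per spot, white matter over all other spots was -0.091 for C1q, 2.12 for C4b, 5.43 for C3 and 0.11 for Cd59a, and -0.064 for C1qa, -0.46 for C1qb, -0.032 for Sez6l2 and -0.81 for Clu, and 8832 genes were past 2-fold (3409 in CPM). With at least 2000 UMIs per spot, where the white matter region shares 58 of 116 spots with that reported, it was 1.78 for C1q and 3.40 for C4b. For C4b it was 3.93 with the lists kept among the variable genes and 4.26 without the meninges region in the rest, an alternative chosen after seeing the data.

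For C1q beside the microglia list the ratio was 0.23 (-0.014 to 0.47) in the higher columns of the array, below the 0.28 of the astrocyte list there, and 0.84 with 10 depth bins as strata. Beside the astrocyte list it was 0.24 with no UMI minimum, 1.09 without strata and 0.61 with depth bins. Beside the white matter list it was 0.22 with the G2-3 tissue list, 0.19 in the lower and -0.076 in the higher columns, 0.48 without strata and -0.23 with depth bins. For C4b beside the microglia list it was 1.05 with depth bins. Beside the astrocyte list it was 0.29 at resolution 0.6, 0.31 with no UMI minimum, 0.20 with at least 2000 UMIs, 0.17 with the G2-3 list, 0.55 in the lower and 0.0036 in the higher columns, 2.07 without strata and 0.95 with depth bins. Beside the white matter list it was 0.20 at resolution 0.6, 0.74 with at least 2000 UMIs, 0.59 with the G2-3 list, -0.069 in the higher columns and 1.497 without strata. Genes past 1.5-fold beside C1q numbered 6, and 266 with a minimum of 100 UMIs and 75 with depth bins. Over 7 clusterings r stayed at 0.98 for C1q with the microglia list and at 0.96 to 0.98 for C4b with the reactive astrocyte list.

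Itgb2 has no fold in any setting. The higher columns hold no spot of the white matter region and give no value for it, and the minimum of 2 list UMIs was not run for lists split at the median. No paired analysis was possible because the data hold 1 library. Depth limits C3, C3ar1, C5ar1 and Itgb2 most, at 14 to 57 UMIs each.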
